A study of Mus musculus with 4 samples.

Results

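The proteases that mast cells store in their secretory granules were followed in activated mouse mast cells with and without the MAP kinase phosphatase Pac1. The set holds 10 genes: Cpa3, Cma1, Mcpt1, Mcpt2, Mcpt4, Mcpt8, Tpsb2, Tpsab1, Ctsg and Gzmb. They were chosen by symbol, and a probe set counted when the platform annotation gave that symbol alone. This gave 10 of the 12393 genes named on the array and 11 of the 22626 probe sets that are not controls, with Tpsb2 represented by 2 and every other gene by 1.

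The tested cells were Pac1-/- bone marrow-derived mast cells, 2 cultures, and their reference was Pac1+/+ wild-type cells, 2 cultures. Pac1 is the product of Dusp2. Marrow came from mice aged 8 to 12 weeks and was grown for 4 to 6 weeks with 5 ng/ml of interleukin-3, after which more than 98% of cells stained for Kit and FceRI. All 4 cultures had been sensitised with 100 ng/ml of IgE against dinitrophenyl for 18 h, and their IgE receptors were then cross-linked for 2 h by antigen (DNP-HSA, 20 ng/ml). No unstimulated culture is among them, so an effect of activation itself was not measured. The strain, how Pac1 was deleted, and whether marrow of several mice was pooled are not given in the sources used here. Each culture was read on 1 Affymetrix 430A array, so precision is limited by there being 4 arrays.

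Mast cell granules hold neutral proteases bound to heparin and chondroitin sulphate chains of the proteoglycan serglycin. Chymases cut after aromatic residues, tryptases after basic ones, and carboxypeptidase A3 removes residues from the C terminus, so that together they degrade venoms, peptides and matrix when the granules are released. In the mouse, Cma1 (mMCP-5), Mcpt4, Tpsb2 (mMCP-6), Tpsab1 (mMCP-7) and Cpa3 mark connective tissue mast cells, whereas Mcpt1 and Mcpt2 mark mucosal mast cells. Mcpt8 is a basophil protease, cathepsin G is best known from neutrophils, and granzyme B from cytotoxic lymphocytes. Cma1, Mcpt1, Mcpt2, Mcpt4, Mcpt8, Ctsg and Gzmb lie in a cluster of related serine protease genes on chromosome 14. Tpsb2 and Tpsab1 lie on chromosome 17 and Cpa3 lies on chromosome 3.

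The 250 bases before the transcription start are shown for 5 genes whose signals differed in kind: Cpa3 and Cma1, bright on every array; Mcpt1 and Mcpt4, near or below the levels that can be tested; and Ctsg, which differed between the replicate numbers. The sequences are from RefSeq (GRCm38.p6), 5' to 3' on the strand of the gene. Capitals mark GATAA, the core bound by GATA factors, AGGAAG, a core of the kind bound by ETS factors such as PU.1, and TATAAA, the TATA box, each on either strand.
Cpa3 upstream, chr3:20242182-20242431, minus strand: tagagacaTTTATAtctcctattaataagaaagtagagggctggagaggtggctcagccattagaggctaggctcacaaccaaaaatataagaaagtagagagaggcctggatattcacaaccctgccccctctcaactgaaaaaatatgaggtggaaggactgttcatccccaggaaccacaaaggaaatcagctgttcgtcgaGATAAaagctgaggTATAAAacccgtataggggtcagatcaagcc
Cma1 upstream, chr14:55944676-55944925, minus strand: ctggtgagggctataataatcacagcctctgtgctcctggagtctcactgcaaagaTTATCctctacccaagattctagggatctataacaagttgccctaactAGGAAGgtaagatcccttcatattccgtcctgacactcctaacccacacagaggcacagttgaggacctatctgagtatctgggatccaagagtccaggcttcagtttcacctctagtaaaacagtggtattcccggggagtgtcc
Mcpt1 upstream, chr14:56017714-56017963, plus strand: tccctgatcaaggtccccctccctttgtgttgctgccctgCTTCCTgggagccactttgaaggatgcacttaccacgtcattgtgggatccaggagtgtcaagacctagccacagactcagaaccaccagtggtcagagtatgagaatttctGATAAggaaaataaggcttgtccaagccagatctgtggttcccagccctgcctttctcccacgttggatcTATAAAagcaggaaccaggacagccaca
Mcpt4 upstream, chr14:56062311-56062560, minus strand: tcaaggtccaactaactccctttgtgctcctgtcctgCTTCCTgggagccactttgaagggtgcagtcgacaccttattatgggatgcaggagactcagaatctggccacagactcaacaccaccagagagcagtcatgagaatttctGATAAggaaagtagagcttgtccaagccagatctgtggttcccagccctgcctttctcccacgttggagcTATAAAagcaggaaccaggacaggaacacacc
Ctsg upstream, chr14:56102575-56102824, minus strand: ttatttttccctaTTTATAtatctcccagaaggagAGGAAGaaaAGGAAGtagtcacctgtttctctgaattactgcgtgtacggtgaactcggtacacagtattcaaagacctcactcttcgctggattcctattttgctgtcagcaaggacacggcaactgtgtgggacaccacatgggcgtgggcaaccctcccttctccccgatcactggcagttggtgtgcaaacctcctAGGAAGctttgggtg

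Upstream windows were matched for 7 of the 10 genes, all but Mcpt2, Tpsb2 and Tpsab1. Mcpt1 and Mcpt4 were 81.9% identical over 260 aligned positions, against 47 to 54.8% in the other 20 pairs of the 7 windows. Both hold the 3 motifs in the same order, with the TATA box beginning 28 bases before the start in Mcpt1 and 32 in Mcpt4. In Cpa3 the GATA core began 45 and the TATA box 31 bases before the start. Cma1 has the GATA core at 194 bases and the ETS core at 146 bases, with no TATA box. Ctsg has 3 matches to the ETS core and none to the GATA core. Its 1 match to TATAAA lies 237 bases before the start, on the other strand. Mcpt8 and Gzmb have none of the 3 motifs. Among 32851 windows of this length in the table, 22.6% hold the GATA core, 29.5% the ETS core and 12.4% the TATA box. The GATA core was found upstream of genes with bright signal (Cpa3, Cma1) and of genes with dim signal (Mcpt1, Mcpt4). These matches describe letters and do not show binding.

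Intensities were quantile normalised across the 4 arrays, and values below 16 were set to 16 before log2. A probe set was tested when its mean intensity was at least 100, which 7770 met. Of the 11 protease probe sets 8 met it, and Mcpt1, Mcpt4 and Mcpt8 did not. The arrays paired off by replicate number more than by genotype: r was 0.89 within replicate 1 and 0.75 within replicate 2, beside 0.47 within the Pac1-/- and 0.44 within the wild-type genotype, over probe sets that are not independent. What the replicate number marks is not given. The 3' to 5' intensity ratio of the GAPDH control was 191 on Pac1-/- replicate 2, against 0.80 to 1.36 on the other 3 arrays, and that of beta-actin was 1.58 on wild-type replicate 2, against 54.8 to 293 on the others. Pac1-/- replicate 2 also had 41% of probe sets below 16, against 25.6 to 31.3% on the others. Dusp2 itself read 109 and 75.5 on the Pac1-/- arrays, against 167 and 90.7 in wild-type cells, which overlap (limma adjusted p = 0.888). Where its probes lie relative to the deletion is not given, so this does not check the labels. All 8 mast cell markers met the intensity minimum, and their summed intensities were 31230 and 30130 in Pac1-/- cells, against 28680 and 25210 in wild-type cells.

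The first question was whether loss of Pac1 changed the granule proteases of activated mast cells. Cpa3, Cma1 and Gzmb were bright in all 4 cultures, and their differences between genotypes were below 0.14 log2 units in size after quantile normalisation. Signals for the tryptases and for Ctsg averaged lower in Pac1-/- cells on most probe sets, but their genotypes overlapped. By limma with Benjamini-Hochberg adjustment over all tested probe sets, 0 of 8 protease probe sets passed an adjusted p of 0.05, and 0 passed at the unadjusted level. Of all 7770 tested probe sets, 0% passed the adjusted test and 3.38% the unadjusted one (2.25% higher and 1.13% lower in Pac1-/- cells). Without Pac1-/- replicate 1, Tpsb2 1422180_a_at alone passed the unadjusted test (-3.77, limma adjusted p = 0.744), in a fit that part of the replicate difference enters. With 2 arrays against 2, an exact permutation test cannot go below p = 0.3333. Missing the threshold is no sign that the genotypes are equal. The confidence intervals come from the same fit, whose residual is the difference between the replicate numbers. They do not measure variation among like cultures, and they leave out the effect of the scaling. In bulk RNA, fewer cells of a type and less RNA per cell cannot be told apart.

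**Figure D1:**
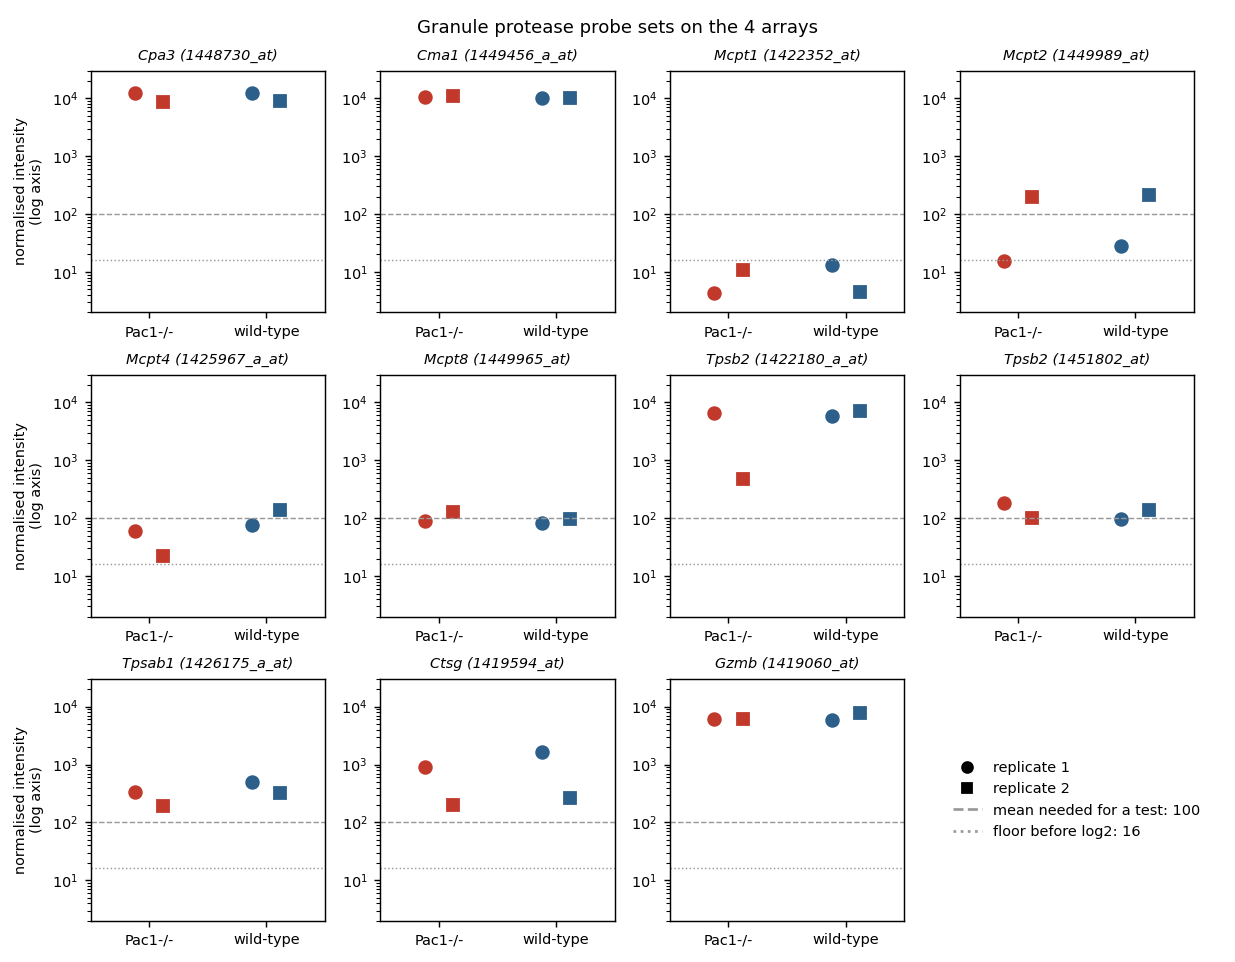
Normalised intensity (log axis) of each of the 11 protease probe sets on the 4 arrays, with Pac1-/- in red at left and wild-type in blue at right, replicate 1 as circles and replicate 2 as squares. Cpa3, Cma1 and Gzmb lie at 5788 or above on every array, Mcpt1 lies below the floor of 16 on every array, and Mcpt2 and Ctsg separate by replicate number rather than by genotype.

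Carboxypeptidase A3, the metalloprotease that trims peptides left by the chymases, read 12388 and 8769.6 in Pac1-/- replicates 1 and 2, against 12388 and 8968 in the wild-type replicates. The genotypes overlapped, and in each the replicate 1 culture was the higher. Pac1-/- cells differed by -0.02 ± 0.42 log2 units (SE, n = 2 in each genotype; 95% confidence interval -1.23 to 1.20; adjusted p = 0.996). The deposited intensities, before quantile normalisation, were 9988 and 11359 in Pac1-/- cells and 9904 and 9134 in wild-type cells. On that scale the difference was 0.16 ± 0.37, so its sign rests on the scaling.

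Among the chymases, Cma1 read 10464 and 11000 in Pac1-/- cells, against 10267 on both wild-type arrays. The wild-type values are equal because quantile normalisation gave the probe set the same rank on both arrays. Their deposited intensities were 8030 and 10988, against 9140 and 14118 in Pac1-/- cells. Cma1 was the only tested protease whose genotypes did not overlap, 1 of 8, and it was higher in Pac1-/- cells; of all tested probe sets 37.7% did not overlap (24.3% higher and 13.4% lower). On the deposited scale they do overlap. Its log2 difference was 0.06 ± 0.34 (95% confidence interval -0.91 to 1.04, limma adjusted p = 0.992). It was 0.27 on the deposited scale and 0.90 with median centring, where the typical tested probe set lay at 0.66.

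Mcpt2, a mucosal mast cell protease related to the chymases, read 15.7 and 198 in Pac1-/- replicates 1 and 2, against 28.4 and 216 in the wild-type replicates. Both replicate 2 cultures were high and both replicate 1 cultures low, so the genotypes overlapped widely. The genotype difference was -0.48 ± 1.75 log2 units (adjusted p = 0.982), with an interval from -5.48 to 4.53 that excludes little.

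The remaining chymase-family probe sets were too dim to test. Mcpt1, the other mucosal chymase, was under the floor of 16 on every array, between 4.33 and 10.7 in Pac1-/- cells and between 4.53 and 12.95 in wild-type cells, so no difference can be given. Mcpt4, the connective tissue chymase that carries most chymotrypsin-like activity in mouse skin and peritoneal mast cells, read 60.4 and 22 in Pac1-/- cells, against 75 and 137 in wild-type cells. Its genotypes did not overlap, with a log2 difference of -1.48, made up of -0.31 within replicate 1 and -2.64 within replicate 2. With no intensity minimum its adjusted p was 0.859. Mcpt8 read 88.5 and 128 in Pac1-/- cells, against 82.1 and 98.1 in wild-type cells, a log2 difference of 0.25 with overlapping genotypes. Its mean of 99.3 lay just under the minimum of 100, and the next protease above the minimum was Mcpt2 at 115.

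The tryptase Tpsb2 gave different answers on its 2 probe sets. On 1422180_a_at it read 6588 and 476 in Pac1-/- replicates 1 and 2, against 5838 and 7259 in wild-type cells, so that a single Pac1-/- culture was low and the other lay within the wild-type range. The log2 difference was -1.88 ± 1.44 (95% confidence interval -6.00 to 2.24; adjusted p = 0.866), with 0.17 within replicate 1 and -3.93 within replicate 2. Without Pac1-/- replicate 2 it was 0.02. On 1451802_at Tpsb2 read 187 and 102 in Pac1-/- cells, against 97.2 and 137 in wild-type cells, a difference of 0.26 ± 0.50 (adjusted p = 0.944; -0.03 on the deposited scale).

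**Figure D2:**
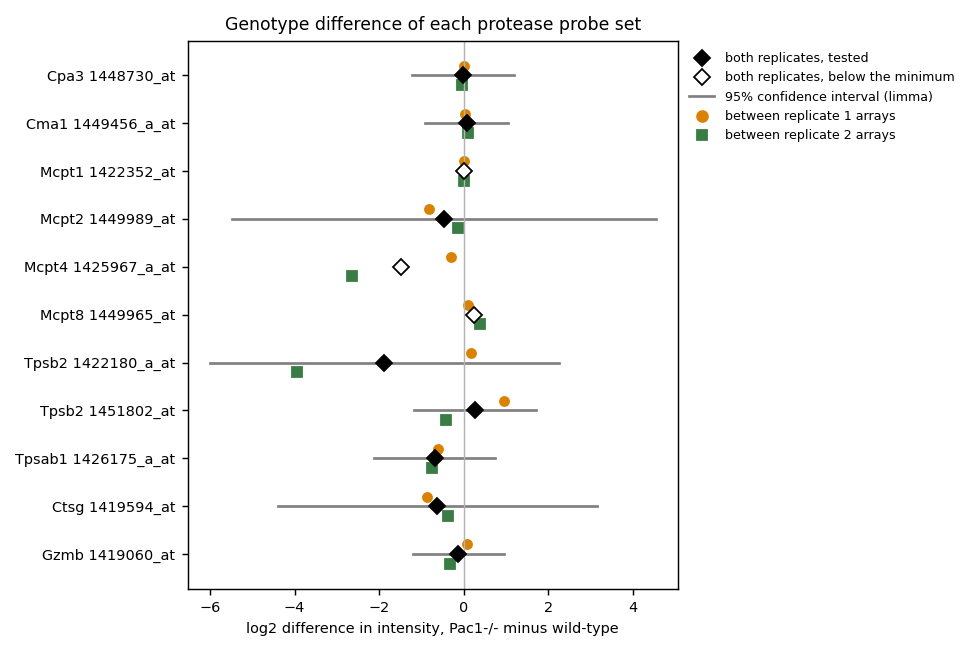
Log2 difference in intensity, Pac1-/- minus wild-type, for each protease probe set, with diamonds for both replicates (open where the mean intensity is below 100), grey bars for the 95% confidence interval, circles for the replicate 1 pair and squares for the replicate 2 pair of arrays. All 8 intervals contain 0, and the replicate 2 pair lies at -3.93 for Tpsb2 1422180_a_at, where the replicate 1 pair lies at 0.17.

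Tpsab1, the other tryptase, read 331 and 194.5 in Pac1-/- cells, against 508 and 328 in wild-type cells. Within each replicate number the Pac1-/- culture was lower, by 0.62 and 0.75 log2 units, yet Pac1-/- replicate 1 was above wild-type replicate 2. The difference was -0.69 ± 0.50 (95% confidence interval -2.12 to 0.75; adjusted p = 0.866; -0.09 ± 0.58 after centring each array on its median). With that centring the typical tested probe set lay at 0.66, against 0.06 in the reported fit. RefSeq lists Tpsab1 as a transcribed pseudogene in the C57BL/6J assembly GRCm38.p6. Signal was above the minimum on all 4 arrays, and how much of it came from Tpsb2 transcripts bound by the same probes was not tested. The tryptases are close paralogs, as are the chymases, and the deposited table cannot divide shared signal between them.

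Cathepsin G, a chymotrypsin-like protease, read 917 and 201 in Pac1-/- replicates 1 and 2, against 1677 and 263 in the wild-type replicates. Again the split was by replicate number, and the genotypes overlapped. The genotype difference was -0.63 ± 1.31 log2 units (limma adjusted p = 0.95). It was -0.05 with median centring, where the typical tested probe set lay at 0.66. Granzyme B, a serine protease that cuts after aspartate, read 6077 and 6163 in Pac1-/- cells, against 5788 and 7789.5 in wild-type cells. Both Pac1-/- cultures lay between the wild-type ones, with a log2 difference of -0.13 ± 0.38 (95% confidence interval -1.21 to 0.94; adjusted p = 0.972; 0.59 with median centring). Lymphocyte markers were dim beside the bright Gzmb signal: none of 8 NK and T cell markers met the intensity minimum, their sums were 140 and 216 in Pac1-/- and 161 and 235 in wild-type cells, and Cd3g was below 16 on every array.

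The low Tpsb2 value of Pac1-/- replicate 2 was next set beside other probe sets. This array was the lowest of the 4 after normalisation on 4 of 8 protease probe sets (Cpa3, Tpsb2 1422180_a_at, Tpsab1 and Ctsg), and on 27.2% of all tested ones. For Cpa3 this rests on the scaling, since its deposited value there, 11359, was the highest of the 4. On Tpsb2 1422180_a_at the array read under 1/4 of each of the other 3 arrays, which held for 1 of 8 protease and for 4.38% of all tested probe sets. Of 1468 genes with 2 or more tested probe sets, 213 had one on which Pac1-/- replicate 2 read that low. For 205 of these, another tested probe set did not. The same count was not made for the other 3 arrays, so it does not show a trait particular to Pac1-/- replicate 2. Some mast cell genes differed between their probe sets. Serpinb1a, described below, was higher in Pac1-/- cells within replicate 2 on both of its probe sets (1.04 and 2.47). Hdc, the histamine-forming enzyme, chosen after its values were seen, read 472 and 139 in Pac1-/- cells, against 570 and 1110.5 in wild-type cells on 1451796_s_at, and 2276 and 1328, against 2200 and 1303 on 1454713_s_at. For the transcription factor Gata2, which is needed for mast cell development, the difference within replicate 2 was -2.41 on 1428816_a_at, with Pac1-/- replicate 2 at 159, and -0.10 on 1450333_a_at. For the stem cell factor receptor Kit another array stood apart. On 1415900_a_at Kit read 65.3 and 82 in Pac1-/- cells, against 84.8 and 1624 in wild-type cells, and on 1452514_a_at 3672 and 3296, against 2580 and 1521.

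Fcer1a, the IgE-binding chain of the receptor, read 10064 and 9337 in Pac1-/- cells, against 9337 and 6915 in wild-type cells. Mitf, a transcription factor that mast cells need, read 1221 and 851 in Pac1-/- cells, against 522 and 771 in wild-type cells. Ms4a2, the beta chain of the IgE receptor, read 41.9 and 1502 in Pac1-/- replicates 1 and 2, against 143 and 3261 in the wild-type replicates, so it was high in both replicate 2 cultures.

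The GAPDH 3' to 5' ratio of 191 belongs to Pac1-/- replicate 2, the array on which Tpsb2 was low. The part of the 3' to 5' ratio in the Tpsb2 result was not tested, because nothing used here places the probe sets along their transcripts.

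**Figure D3:**
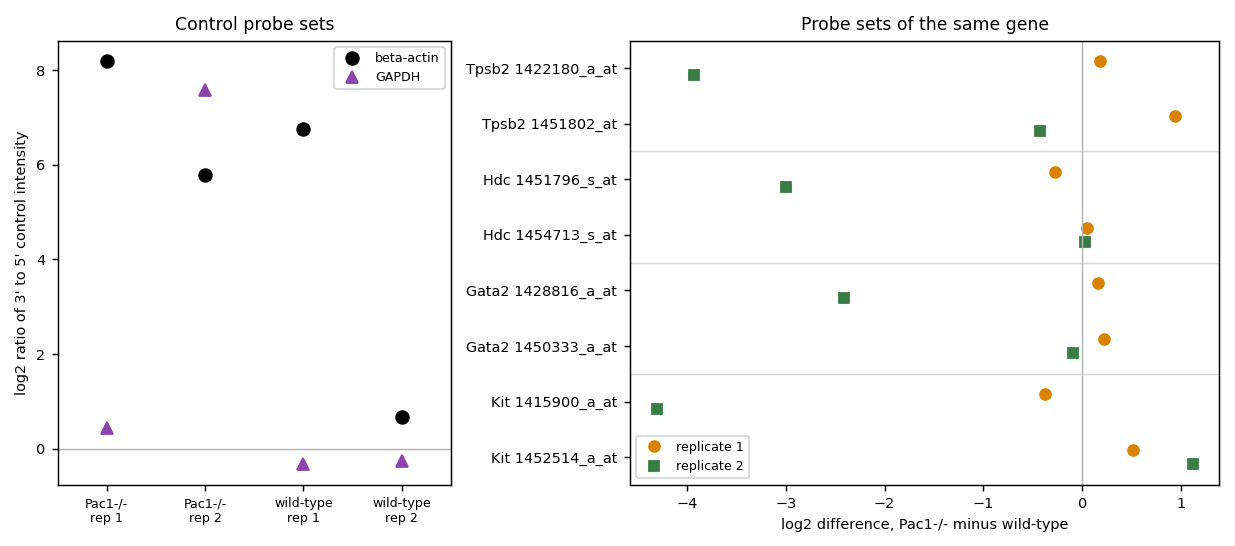
Left, log2 ratio of 3' to 5' intensity of the beta-actin (circles) and GAPDH (triangles) controls on each array. Right, log2 difference, Pac1-/- minus wild-type, on both probe sets of Tpsb2, Hdc, Gata2 and Kit, with circles for the replicate 1 and squares for the replicate 2 arrays. In each of the 4 genes the replicate 2 difference lies far below 0 on the first probe set (-3.93, -3.00, -2.41 and -4.31) and nearer to or above 0 on the second. These genes are a selection, and Serpinb1a, not drawn, was above 0 on both probe sets (1.04 and 2.47).

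The second comparison was between the replicate numbers, with genotype in the model. Mcpt2 was higher and Ctsg lower in the replicate 2 cultures of both genotypes, and these were the only proteases past the adjusted test. Cma1, Gzmb and Cpa3 differed by under 0.5 log2 units. Passing were 2 of 8 protease probe sets, or 1 in each direction, near the background: 14.5% of all 7770 tested probe sets passed. At the unadjusted level 2 of 8 passed as well, beside 20.7% of all (9.7% higher and 11% lower in replicate 2). In 5 of 8 the replicate numbers did not overlap (Mcpt2 and Gzmb higher; Cpa3, Tpsab1 and Ctsg lower), beside 41.4% of all tested probe sets (22.9% higher and 18.5% lower). The test rests on 1 residual degree of freedom per probe set, and the spread between cultures of the same number and genotype was not measured.

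Mcpt2 read 198 and 216 on the replicate 2 arrays (Pac1-/- and wild-type in turn), against 15.7 and 28.4 on the replicate 1 arrays. The log2 difference, replicate 2 minus replicate 1, was 3.28 ± 0.48 (SE; limma adjusted p = 0.0028), or 9.71-fold with Pac1-/- replicate 1 set to the floor. Mcpt2 met the intensity minimum only through the replicate 2 arrays, where it was high, so it had to differ and its p supports nothing. The difference was 3.63 within Pac1-/- and 2.93 within wild-type cells, and 1.69 with a floor of 64, so the size depends on the floor and the direction was seen in both genotypes. With 1 array left out and no genotype term, the difference was 2.87, 3.34, 3.69 and 3.22 without Pac1-/- replicate 1, Pac1-/- replicate 2, wild-type replicate 1 and wild-type replicate 2. The adjusted p was then 0.175, 0.0504, 0.13 and 0.049, so the call ended in 3 of the 4 cases, and with no intensity minimum it was 0.312.

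Ctsg read 201 and 263 on the replicate 2 arrays, against 917 and 1677 on the replicate 1 arrays. The log2 difference was -2.43 ± 0.47 (adjusted p = 0.011), or 0.185-fold, with -2.19 within Pac1-/- and -2.67 within wild-type cells. All 4 values lie above 100, so this difference does not depend on the floor. In the same order of arrays left out it was -2.87, -2.24, -1.997 and -2.63, with adjusted p of 0.187, 0.125, 0.357 and 0.0804. The call ended in each of these and with no intensity minimum (adjusted p = 0.309), while the direction held.

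**Figure D4:**
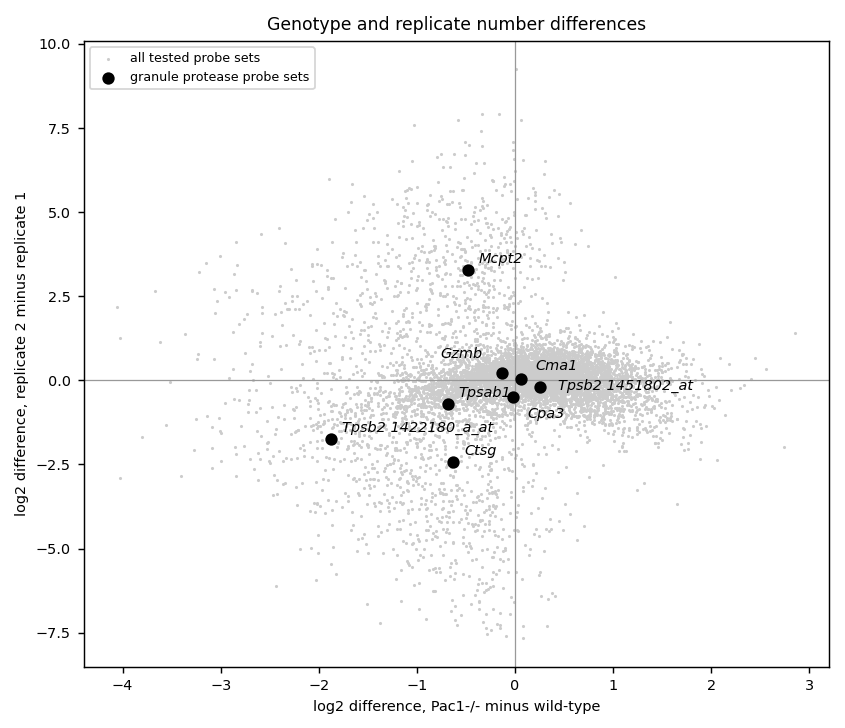
Each point is a probe set, with its log2 difference between genotypes (Pac1-/- minus wild-type) on the horizontal and between replicate numbers (replicate 2 minus replicate 1) on the vertical axis, in grey for all 7770 tested and in black for the 8 tested protease probe sets. Mcpt2 lies at 3.28 and Ctsg at -2.43 on the vertical axis, while Cma1, Gzmb and Cpa3 lie near the centre.

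The other tested proteases did not pass between the replicate numbers. Tpsab1 was at -0.70 ± 0.47 (adjusted p = 0.543) and Cpa3 at -0.48 ± 0.47 (adjusted p = 0.735; 0.03 on the deposited scale and 0.0469 for the adjusted p with an intensity trend in the model). Gzmb was at 0.22 ± 0.47 (adjusted p = 0.906) and Cma1 at 0.04 ± 0.47 (adjusted p = 0.984). Tpsb2 was at -1.74 ± 0.89 (adjusted p = 0.364) on 1422180_a_at, where Pac1-/- replicate 2 alone was low, and at -0.19 ± 0.53 (adjusted p = 0.927) on 1451802_at. Mcpt8, below the minimum, was 0.40 higher, with 128 and 98.1 on the replicate 2 arrays, against 88.5 and 82.1 on the replicate 1 arrays.

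Markers of other cells were read beside these differences. Granulocyte precursor markers were dim: none of the 8 on the array met the intensity minimum, and Prtn3 and Camp were under 16 on all 4 arrays. Their sum was 495 and 302 on the replicate 2 arrays, against 186 and 231.5 on the replicate 1 arrays, the opposite order to Ctsg. S100a8, S100a9 and Ngp were higher on both replicate 2 arrays, with S100a9 at 107 and 57.7, against 10.2 and 7.85 on the replicate 1 arrays, while Elane, Mpo and Ltf overlapped.

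The macrophage list moved with Ctsg, at 599 and 583 on the replicate 2 arrays, against 6098 and 7972 on the replicate 1 arrays. This came from Cd68 alone, which read 121 and 118, against 5638 and 7512. Without Cd68, left out after its values were seen, the sums were 478 and 465, against 460 and 460, and C1qa was under 16 throughout. Of 6 basophil markers 4 had a probe set and 3 met the minimum. The sum of these 4 was 10540 and 7930 on the replicate 2 arrays, against 10800 and 9975 on the replicate 1 arrays. It was thus lower in replicate 2 within each genotype. Replicate 2 minus replicate 1, Fcer1a was at -0.27 log2 units, Gata1 at 0.36 and Il3ra, below the minimum, at 0.48. Il4, which mast cells and basophils both make, differed more. It read 387 and 236 on the replicate 2 arrays, against 52.2 and 94.4 on the replicate 1 arrays, the same order as Mcpt2. The beta-actin 3' to 5' ratio also differed by replicate number within each genotype, at 54.8 and 1.58, against 293 and 109. That of GAPDH had the opposite order, at 191 and 0.84 on the replicate 2 arrays, against 1.36 and 0.80 on the replicate 1 arrays. Sex-linked genes differed too: the brightest Xist probe set read 984 and 2952 on the replicate 2 arrays, against 41.7 and 47.7 on the replicate 1 arrays. Y-linked Eif2s3y read 2.1 and 0.95, against 275 and 219. The sex of the mice is not given in the labels, and a difference of sex cannot be told apart from the replicate number. The part of any of these in the protease differences was not tested.

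The genes between Cma1 and Gzmb on chromosome 14 were then read in their order (RefSeq, GRCm38.p6). This interval holds 15 protein-coding genes, 7 of them among the proteases above. Of the other 8, 6 have a probe set and only Gzmd, a granzyme gene that lies beyond Ctsg and Gzme, was bright enough to test. Gzmd read 0.7 and 7.1 on the replicate 2 arrays, against 76.1 and 466 on the replicate 1 arrays on 1420344_x_at, a log2 difference of -3.56 with the replicate 2 values at the floor. This probe set met the minimum only through the replicate 1 arrays, so its difference is given without a test. Its other probe set, 1420343_at, read 6.68 and 0.7, against 115 and 277, and lay just below the minimum. Gzme, between Ctsg and Gzmd, did not exceed 22.8 on any array, and Gzmc, Gzmf, Gzmg and Gzmn did not exceed 24.2. The chymase pseudogene Mcpt-ps1, next to Cma1, read 230 and 234 on the replicate 2 arrays, against 115 and 73.4 on the replicate 1 arrays (log2 difference 1.34). It met the minimum only through the replicate 2 arrays, where it was high, so its difference is also given without a test. Mcpt-ps1 was chosen after its values were seen. Within the interval the differences thus ran in both directions, and the outermost genes Cma1 and Gzmb lay near 0.

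**Figure D5:**
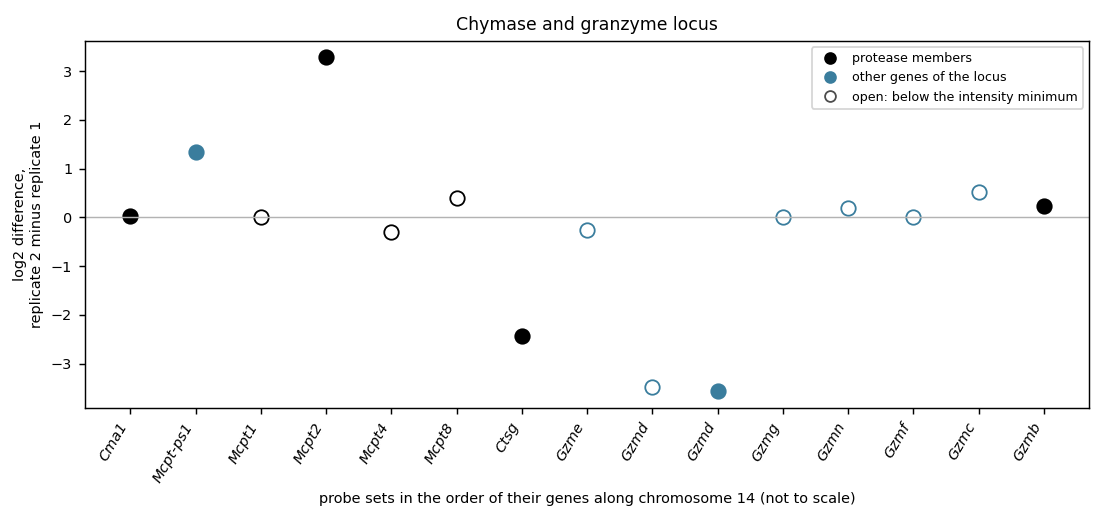
Log2 difference, replicate 2 minus replicate 1, of each probe set in the order of its gene along chromosome 14, with black for the proteases described, blue for other genes of the interval, and open circles for probe sets with a mean intensity below 100. Mcpt2 stands at 3.28, Ctsg at -2.43 and the Gzmd probe sets at -3.48 and -3.56, while Cma1 and Gzmb stand at 0.04 and 0.22.

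Genes that activate, store or inhibit the granule proteases were read from a list of 34, of which 30 have a probe set and 21 were tested. Between the genotypes 0 passed the adjusted limma test and 1, Chst11, the unadjusted one, beside 0 and 2.92% of all tested genes. In Pac1-/- cells 11 averaged higher and 10 lower, with a median log2 difference of 0.03, beside 56% higher and a median of 0.10 over all 4998 tested genes. The activator comes first in the pathway. Ctsc, the dipeptidyl peptidase that removes the propeptide of chymases, cathepsin G and granzymes, read 2090 and 1946 in Pac1-/- cells, against 2356 and 1483 in wild-type cells, with overlapping genotypes (0.11 ± 0.42, adjusted p = 0.982).

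Storage genes were split. Srgn, the serglycin core protein that holds the proteases, read 8420 and 6366 in Pac1-/- cells, against 8126 and 4913 in wild-type cells (0.21 ± 0.46, adjusted p = 0.954). Ndst2, the sulphotransferase that heparin synthesis in mast cells needs, read 642 and 140 in Pac1-/- cells, against 452 and 648 in wild-type cells, so that Pac1-/- replicate 2 alone was low (-0.85 ± 0.90, adjusted p = 0.878). Chst11, a chondroitin 4-sulphotransferase, read 98.4 and 78.5 in Pac1-/- cells, against 212 and 258 in wild-type cells. Its genotypes did not overlap (-1.41 ± 0.38, adjusted p = 0.866), but it met the minimum only through the wild-type arrays, where it was high. Hs6st1, a heparan 6-sulphotransferase, had the opposite sign (0.97 ± 0.49, adjusted p = 0.866), with 400 and 211 in Pac1-/- cells and 160 and 137.5 in wild-type cells.

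Among the inhibitors, Serpinb1a, which inhibits elastase-like and chymotrypsin-like granule proteases, was the brightest, at 6454 and 4919 in Pac1-/- cells, against 4774.5 and 2394 in wild-type cells. The genotypes did not overlap (0.74 ± 0.52, adjusted p = 0.866), and its second probe set had the same sign (1.73 ± 0.91, adjusted p = 0.866). Cst7, cystatin F, an inhibitor of Ctsc, read 2631 and 3075 in Pac1-/- cells, against 1935 and 2830 in wild-type cells (0.28 ± 0.40, adjusted p = 0.912). Spint1, a Kunitz-type inhibitor, was low on Pac1-/- replicate 1 only (-1.50 ± 1.21, adjusted p = 0.866). The lysosomal protease Ctsd was low on Pac1-/- replicate 2 only, at 555, against 5770 to 7295 on the other 3 arrays (-1.59 ± 1.41, adjusted p = 0.875). Cpd, a carboxypeptidase of the secretory pathway, was at -0.78 ± 2.93 between the genotypes (adjusted p = 0.982).

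Between the replicate numbers 3 of the 21 passed the adjusted test, beside 13.1% of all 4998 tested genes, which is near the same share. Cpd read 21.1 and 46.1 on the replicate 2 arrays, against 1290.1 and 1730 on the replicate 1 arrays, and it met the minimum only through replicate 1, so its call supports nothing. The lysosomal protease Ctsz was lower too (-2.57 ± 0.48, adjusted p = 0.00893), and the cysteine protease inhibitor Cst3 was higher in the replicate 2 cultures (2.51 ± 0.47, adjusted p = 0.00855). Ctsz and Cst3 were named after their values were seen.

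The last list held 32 other granule serine proteases and carboxypeptidases, of which 23 have a probe set and 4 were tested: Cpe, Gzmd, Tpsg1 and Cpb1. None passed the adjusted test between the genotypes, 1 passed the unadjusted one, 2 averaged higher and 2 lower, and the median was -0.02, beside 2.92% past the unadjusted test, 56% higher and a median of 0.10 over all tested genes. The prohormone carboxypeptidase Cpe was the one past the unadjusted test (1.91 ± 0.40, adjusted p = 0.866), with 169 and 249 in Pac1-/- cells, against 58.3 and 51.5 in wild-type cells. Cpe met the minimum only through the Pac1-/- arrays, where it was high, so this pass supports nothing. The transmembrane tryptase Tpsg1 read 1802 and 521 in Pac1-/- cells, against 2210 and 1400 in wild-type cells, with overlapping genotypes (-0.86 ± 0.78, adjusted p = 0.875). Cpb1, pancreatic-type carboxypeptidase B, was at 0.82 ± 0.63 (adjusted p = 0.866) and Gzmd at -1.31 ± 2.00 (adjusted p = 0.917). Cpb1 read 92.9 and 197 in Pac1-/- cells, against 55.4 and 106 in wild-type cells. Gzmd read 76.1 and 0.7, against 466 and 7.1. Both also met the minimum only through the genotype where they were high. The intensity minimum thus shaped the counts and median of this list, and they support nothing about the genotypes. The neutrophil granule genes Mpo, Elane and Prtn3 and the lymphocyte granzyme genes Gzma, Gzmk and Gzmm were below the minimum.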

How the data were processed

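The authors deposited linear intensity values, 1 per probe set and array, which per the submitters' processing notes came from MAS5; their trimmed means (2% left out at either end) were 150.06 to 150.08. The series' design text describes RMA, Limma and an intensity filter instead, and RMA values were not used here. After 64 controls were left out, the arrays were quantile normalised, floored at 16 and taken to log2. Probe sets with a mean of at least 100 were fitted with limma 3.58.1 (R 4.3.3; lmFit, eBayes, Benjamini-Hochberg), with genotype as the only term (2 residual and 1.71 prior degrees of freedom), or with genotype and replicate number for the second comparison (1 residual and 6.33 prior). Steps were tested on simulated data with independent noise on each array and no replicate difference. How the p-values behave with such a difference was not tested. There was 1 array per culture. With genotype as the only term, the residual of a probe set is its difference between replicate numbers 1 and 2. Same-numbered arrays deviated together (r = 0.75 over probe sets), so these p-values and their confidence intervals do not measure variation among like cultures. That variation was not measured in the second comparison either.

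Symbols came from the platform annotation: 20380 probe sets have 1, 691 several and 1555 none. Genes of the lists are represented by their brightest probe set. Promoters were searched with Python 3.11.15 and aligned with Biopython 1.88, and figures drawn with matplotlib 3.10.9. The members, lists, markers and tests were chosen with earlier results of these data known. Named were all members, Kit, Fcer1a, Mitf and Gata2 and, per list, the 6 tested genes with the largest difference and the 4 brightest. Ctsc, Hdc, Mcpt-ps1, Ctsz, Cst3, Il4, Il3ra, Gata1, Cd68, Ms4a2, S100a8, S100a9, Ngp, Xist, Eif2s3y and genes given as dim are outside that rule. Alternatives were the scaling, intensity minimum, floor, eBayes trend, replicate block, arrays left out, and probe set choice.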

Additional observations from a re-analysis of the deposited data

How the results depend on the processing

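The count of 0 proteases past limma's adjusted test between the genotypes held under every alternative run, and 1 passed the unadjusted test without Pac1-/- replicate 1. On the median-centred scale the typical tested probe set lay at 0.66, against 0.06 in the reported fit. Signs that turned between the genotypes were those of Cpa3 (0.16 as deposited, 0.79 with median centring), Gzmb (0.59 with median centring) and Tpsb2 1451802_at (-0.032 as deposited, -0.81 with its probe sets averaged). With each array left out in turn, the differences ran from -0.27 to 0.23 for Cpa3, -2.29 to 1.34 for Mcpt2, -3.77 to 0.017 for Tpsb2 1422180_a_at, -0.18 to 0.69 for Tpsb2 1451802_at, -1.97 to 0.71 for Ctsg and -0.35 to 0.081 for Gzmb; here the lone array is taken to vary as the other genotype does, and part of the replicate difference enters. The cause of these turns was not tested.

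The unadjusted count over all probe sets, 263 (66.5% higher), was 1762 with no minimum, 110 with a minimum of 200, 408, 86 and 79 without Pac1-/- replicate 1, Pac1-/- replicate 2 and wild-type replicate 2; the higher share was 54.2% as deposited and 91.6% with median centring. The replicate number as a block gave 0 proteases, 0 probe sets past the adjusted test and 899 at the unadjusted level (36.5% higher). Same-numbered arrays deviated together (r = 0.75 over probe sets), but the labels do not say that the number pairs the cultures.

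Between the replicate numbers, the 2 proteases became 0, and the 1126 probe sets 0, with no intensity minimum, where 14856 more probe sets are tested. The unadjusted limma p rose there as well, from 0.000211 to 0.0195 for Mcpt2 and from 0.00119 to 0.0178 for Ctsg. At the unadjusted level 4 proteases passed with no minimum. With a minimum of 200, which drops Mcpt2, 1 passed. With each array left out and no genotype term, alternatives chosen after seeing the data, 0 proteases and 0 probe sets passed without Pac1-/- replicate 1 or wild-type replicate 1, 0 and 641 without Pac1-/- replicate 2, and 2 and 767 without wild-type replicate 2, where these were Mcpt2 and Tpsb2 1422180_a_at; 2 or 3 proteases passed at the unadjusted level. Signs turned without Pac1-/- replicate 2 for Cma1 (-0.014), Tpsb2 1422180_a_at (0.23) and Tpsb2 1451802_at (0.024), and without Pac1-/- replicate 1 for the last (0.28). Cpa3 turned to 0.034 as deposited and 0.42 with median centring.

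The median of the processing, storage and inhibitor list was 0.71 with median centring and -0.22 to 0.20 with an array left out. That of the other protease list was 0.56 with median centring, -0.86 with a minimum of 200, where only Tpsg1 is left, and -0.20 to 0.74 with an array left out. No detection calls were used, so values under the floor have no order.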
